A study of Homo sapiens with 2 samples.

Results

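The CLCN5 intronic miRNA cluster was described here in an oral squamous cell carcinoma line and in an invasive line derived from it. Its members were 10 named mature miRNAs, namely both arms of miR-532, miR-500a and miR-362, together with miR-501-3p, miR-502-3p, miR-660-5p and miR-188-5p. They were found by name in the deposited table, and all 10 were among its 1213 entries. UM-SCC6-M came from UM-SCC6 cells that crossed a matrix-filled channel of a microfluidic chip, were collected there and were put through the chip again, for 3 rounds in all. The labels describe it as strongly invasive with some mesenchymal traits. UM-SCC6 is the unselected parental line. Neither line carries a labelled transgene, knockdown or drug treatment, and no line put through the chip without selection was analysed here. A single library was made from each line, so the values below cannot be set against replicate error, and the lines were compared without a test.

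MicroRNAs (miRNAs) are short RNAs that guide Argonaute proteins to messenger RNAs, pairing mainly through the seed, bases 2 to 8 of the miRNA. A hairpin precursor is cut into a duplex of a 5p and a 3p arm, of which usually 1 is kept and the other mostly degraded. CLCN5 encodes ClC-5, a chloride and proton exchanger of endosomes whose loss causes Dent disease of the kidney. Hairpins within 1 intron can be made from 1 primary transcript, and each is then processed on its own, so that mature levels from the same intron may differ.

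In GENCODE release 29 (GRCh38) the locus holds 8 hairpins on the plus strand of chromosome X, all in the sense of CLCN5 (49922615 to 50099235). They lie within 11536 bp, from 50003148 to 50014683, in intron 3 (117001 bp) of the annotated transcript that spans the whole gene. Each lies in an intron of 3 of the 9 annotated CLCN5 transcripts, and none overlaps an exon of any of the 9. MIR532 (50003148 to 50003238) and MIR188 (50003503 to 50003588) form a pair 264 bp apart. After a gap of 4842 bp follow MIR500A (50008431 to 50008514), MIR362 (50008964 to 50009028), MIR501 (50009722 to 50009805) and MIR500B (50010672 to 50010750). MIR660 (50013241 to 50013337) and MIR502 (50014598 to 50014683) come last. The 10 members come from 7 of these hairpins, as miR-500b is not among them. The build used by the authors was not given in the sources used here, so these positions come from the annotation and not from their file.

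The mature sequences show how closely the hairpins resemble each other, and which names could compete for the same reads. RefSeq (GRCh38.p14) gave a sequence for 9 of the 10 members, all but miR-660-5p. These and miR-500b-5p, which is not a member, are written 5′ to 3′ with the seed in capitals. The 3p products of miR-500a, miR-501 and miR-502 come first.
miR-500a-3p: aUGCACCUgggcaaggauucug
miR-501-3p: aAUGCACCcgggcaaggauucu
miR-502-3p: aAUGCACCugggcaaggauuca
miR-362-3p: aACACACCuauucaaggauuca
miR-500a-5p: uAAUCCUUgcuaccugggugaga
miR-500b-5p: aAUCCUUGcuaccugggu
miR-362-5p: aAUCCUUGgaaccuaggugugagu
miR-188-5p: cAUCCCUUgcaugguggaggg
miR-532-5p: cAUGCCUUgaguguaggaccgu
miR-532-3p: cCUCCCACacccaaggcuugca

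The 3p products of miR-501 and miR-502 share the seed AUGCACC and differ by an edit distance of 2 bases. miR-500a-3p starts 1 base later in the same motif and shares 20 bases in a row with miR-502-3p, at an edit distance of 3. On the 5p side, miR-362-5p and miR-500b-5p share the seed AUCCUUG, and miR-500a-5p carries it moved by 1 base. The whole of miR-500b-5p, a product of the locus that is not a member, lies inside miR-500a-5p with 18 shared bases. Short reads of this kind could be given to either name, and how the authors assigned them was not given in the sources used here. Outside the locus, miR-329-3p on chromosome 14 was the 1 entry with a RefSeq sequence that shared a seed with a member, ACACACC of miR-362-3p. It was listed at 0 in both libraries. For miR-660-5p no seed could be compared.

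The entries of the deposited table held 7699490 reads in UM-SCC6-M and 8182958 in UM-SCC6, recovered from the scaled values. Reads outside these entries are not counted, so a share or total of a library below is one of its tabled reads. Levels are given in the scaled unit of the deposited table, called normalized reads, in which 1 read was worth 0.119 in UM-SCC6-M and 0.133 in UM-SCC6. Ratios are UM-SCC6-M over UM-SCC6 on the log2 scale, with exact 95% intervals. The intervals account for the counting error of reads alone. PCR copies of a molecule are counted as separate reads, so the intervals may be too narrow for counts of molecules. Of the epithelial and squamous marker miRNAs fixed for these carcinoma lines, 7 of 9 had an entry, all but miR-141-3p and miR-205-5p. The summed level of these 7 was 19716 in UM-SCC6-M and 16443 in UM-SCC6, most of it miR-200b-3p. Of the 4 at 50 or more normalized reads, miR-200b-3p alone had a log2 ratio above 0 (0.45), miR-200a-3p stood at -0.99, and the median was -0.08. Below that level, miR-200c-3p stood at 1.79 in UM-SCC6-M and 2.66 in UM-SCC6. There miR-203a-3p was listed at 2.75 and 0 in the same order, and miR-944 at 0 in both. Stromal markers summed to 25.9 in UM-SCC6-M and 20.9 in UM-SCC6, with miR-145-5p and miR-214-3p at 0 in both. The stromal markers with reads went opposite ways. miR-199a-3p stood at 21.9 in UM-SCC6-M and 10.5 in UM-SCC6, and miR-143-3p at 4.06 and 10.4 in the same order. Blood markers summed to 17.9 and 24.6 in the same order, all from miR-486-5p. The muscle marker miR-1-3p stood at 108.8 in UM-SCC6-M and 333.0 in UM-SCC6, and miR-133a-3p at 2.51 and 4.12 in the same order. The endothelial marker miR-126-3p stood at 519.9 in UM-SCC6-M and 968.3 in UM-SCC6. The part of other cells or of these differences in the values below was not tested.

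The cluster as a whole was slightly lower in the UM-SCC6-M library. The 10 members together had 4017 normalized reads in UM-SCC6-M and 4891 in UM-SCC6, resting on 33640 reads in UM-SCC6-M and 36803 in UM-SCC6. The log2 ratio of these sums was -0.28, with a counting interval of -0.31 to -0.26. As a share of the tabled reads, the cluster made up 0.437% in UM-SCC6-M (0.432 to 0.442) and 0.450% in UM-SCC6 (0.445 to 0.454). Under the authors' scaling the difference came almost wholly from 1 miRNA. Without miR-532-5p the other 9 members summed to 1212 in UM-SCC6-M and 1248 in UM-SCC6, a log2 ratio of -0.042. When both libraries were scaled to their total reads, which moves every log2 ratio up by 0.24, the ratio of the full sum was also -0.042. Under that scaling miR-532-5p stood at -0.14, while the sum of the other 9 members was higher in UM-SCC6-M.

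**Figure D1:**
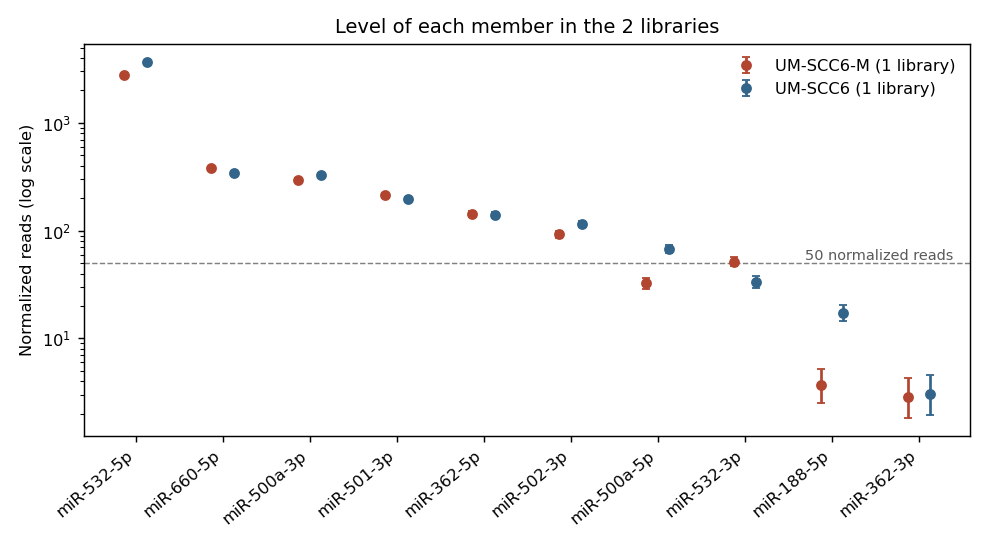
Normalized reads (log axis) of the 10 members in the UM-SCC6-M library (left point of each pair) and the UM-SCC6 library (right point), with exact 95% counting intervals and a dashed line at 50 normalized reads. miR-532-5p stands far above the rest at 2805 in UM-SCC6-M and 3643 in UM-SCC6, and miR-188-5p shows the widest gap between the libraries.

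Members differed widely in level within a library, although their hairpins lie in 1 intron. miR-532-5p, reported to repress the tumor suppressor gene RUNX3 in gastric cancer cells, had 2805 normalized reads in UM-SCC6-M and 3643 in UM-SCC6. It made up 69.8% of the reads of the cluster in UM-SCC6-M (69.3 to 70.3) and 74.5% in UM-SCC6 (74.0 to 74.9). miR-660-5p, reported to repress MDM2 in lung cancer cells, came next at 379.6 in UM-SCC6-M and 345.5 in UM-SCC6. Its share of the cluster was 9.45% in UM-SCC6-M (9.14 to 9.77) and 7.06% in UM-SCC6 (6.80 to 7.33). These shares do not depend on how the libraries were scaled, and miR-532-5p and miR-660-5p had the largest shifts in share, downward for miR-532-5p and upward for miR-660-5p in UM-SCC6-M.

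The order of the levels was the same in both libraries but for 1 exchange of neighbours. After miR-660-5p followed miR-500a-3p, miR-501-3p, miR-362-5p and miR-502-3p. Ranks 7 and 8 were held by miR-532-3p and then miR-500a-5p in UM-SCC6-M, and by miR-500a-5p and then miR-532-3p in UM-SCC6. miR-188-5p and miR-362-3p came last. Neighbours in this order were apart beyond their counting intervals, except miR-188-5p and miR-362-3p in UM-SCC6-M and miR-660-5p and miR-500a-3p in UM-SCC6. Ligation favours some ends over others, so a level compared between miRNAs is a count of reads and not of molecules.

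Along the intron, level did not follow position. The 2 arms of MIR532 summed to 2856 in UM-SCC6-M and 3677 in UM-SCC6. Its nearest neighbour MIR188, 264 bp downstream, gave 3.70 normalized reads in UM-SCC6-M and 17.3 in UM-SCC6, all listed under the 5p arm. MIR660 summed to 381.3 in UM-SCC6-M and 347.1 in UM-SCC6, MIR500A to 326.7 and 398.0, and MIR501 to 237.1 and 224.4 in the same order. MIR500B, between MIR501 and MIR660, summed to 8.96 in UM-SCC6-M and 7.84 in UM-SCC6.

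**Figure D2:**
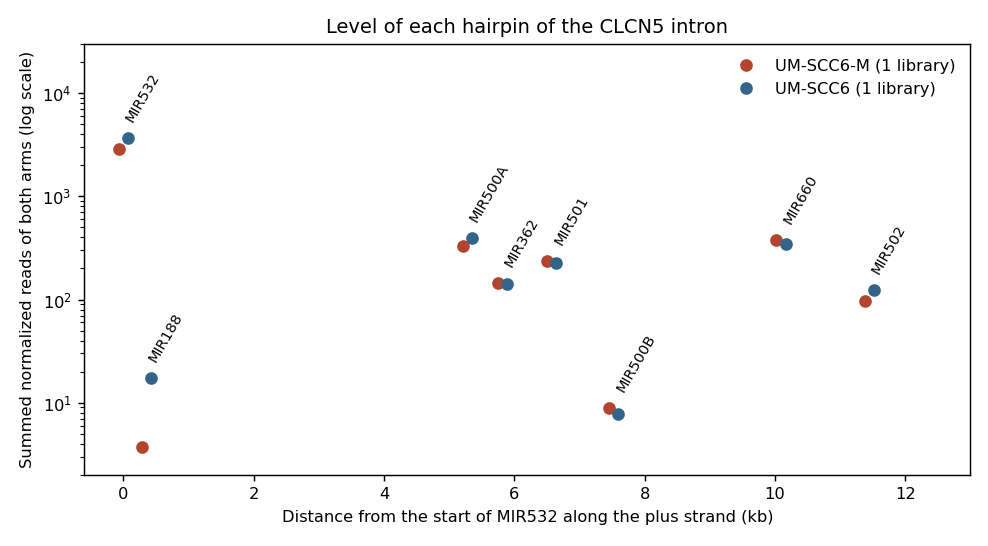
Summed normalized reads of both arms (log axis) of the 8 hairpins against the distance of each from the start of MIR532 in kb, for UM-SCC6-M (red) and UM-SCC6 (blue). MIR188 and MIR500B lie far below their neighbours in both libraries, and the gap between the libraries is widest at MIR188.

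Of the 10 members, 8 reached 50 normalized reads in the higher library, and 1 of these 8 was at least 2-fold apart, in the lower direction. Over all 179 miRNAs at that floor, 20.1% were at least 2-fold apart in either direction, 12.8% lower and 7.26% higher in UM-SCC6-M. A share of 1 in 8 is near that background and is no result about the cluster. Of the 8 members, 4 had a log2 ratio above 0 and 4 below it, and their median was -0.06, beside 0.04 over the 179. Their ratios ran from -1.07 to 0.61, while the middle 50% of the 179 lay between -0.61 and 0.41.

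The miRNA 2-fold apart was miR-500a-5p, the minor arm of its hairpin. miR-500 has been reported to repress CYLD, a deubiquitinase that restrains NF-κB signaling, in gastric cancer cells. miR-500a-5p had 32.4 normalized reads in UM-SCC6-M and 67.9 in UM-SCC6, on 271 reads in UM-SCC6-M and 511 in UM-SCC6. It was 2.10-fold lower in UM-SCC6-M, with a counting interval of 1.81 to 2.44, which includes 2-fold. Summing it with miR-500b-5p, whose sequence lies inside it, gave 39.2 in UM-SCC6-M and 72.8 in UM-SCC6, or 1.86-fold lower. miR-500b-5p on its own went the other way, at 6.81 in UM-SCC6-M and 4.92 in UM-SCC6, within counting error. The call was also lost under scaling to total reads, where the log2 ratio of miR-500a-5p was -0.83 in place of -1.07.

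The widest ratio in the cluster was that of miR-188-5p, which lay below the floor of 50 normalized reads in both libraries. It had 31 reads in UM-SCC6-M and 130 in UM-SCC6, or 3.70 normalized reads in UM-SCC6-M and 17.3 in UM-SCC6. It was 4.61-fold lower in UM-SCC6-M, with an interval of 3.13 to 7.15. Without a floor, 19.8% of the 555 miRNAs with known reads in both libraries were at least 2-fold lower. That share is for 2-fold, and none was computed for a difference as large as that of miR-188-5p. Its log2 ratio, -2.20 with the scaling of the deposited values, became -1.96 when both libraries were scaled to their total reads. In mice, miR-188 has been linked to the choice of marrow cells between bone and fat. The other arm, miR-188-3p, was listed at 0 in both libraries.

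The other members lay within 2-fold. miR-532-5p had a log2 ratio of -0.38 (-0.40 to -0.35) and miR-502-3p, at 92.5 in UM-SCC6-M and 114.7 in UM-SCC6, one of -0.31 (-0.45 to -0.17). miR-500a-3p, at 294.3 in UM-SCC6-M and 330.1 in UM-SCC6, stood at -0.17 (-0.25 to -0.08), and its sign turned to 0.08 under scaling to total reads. These 3 thus had somewhat fewer normalized reads in UM-SCC6-M under the authors' scaling. miR-660-5p stood at 0.14 (0.06 to 0.21) and miR-501-3p, at 212.5 in UM-SCC6-M and 196.3 in UM-SCC6, at 0.11 (0.01 to 0.22). miR-532-3p, at 51.3 in UM-SCC6-M and 33.6 in UM-SCC6, was 1.53-fold higher (1.30 to 1.79). miR-362-5p, also reported to repress CYLD, had 142.9 in UM-SCC6-M and 139.3 in UM-SCC6, a ratio of 0.04 whose interval included 0 (-0.08 to 0.16). The interval of miR-362-3p, on 24 reads in UM-SCC6-M and 23 in UM-SCC6, ran from -0.98 to 0.80, so at this depth a difference of nearly 2-fold could not have been told from none.

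**Figure D3:**
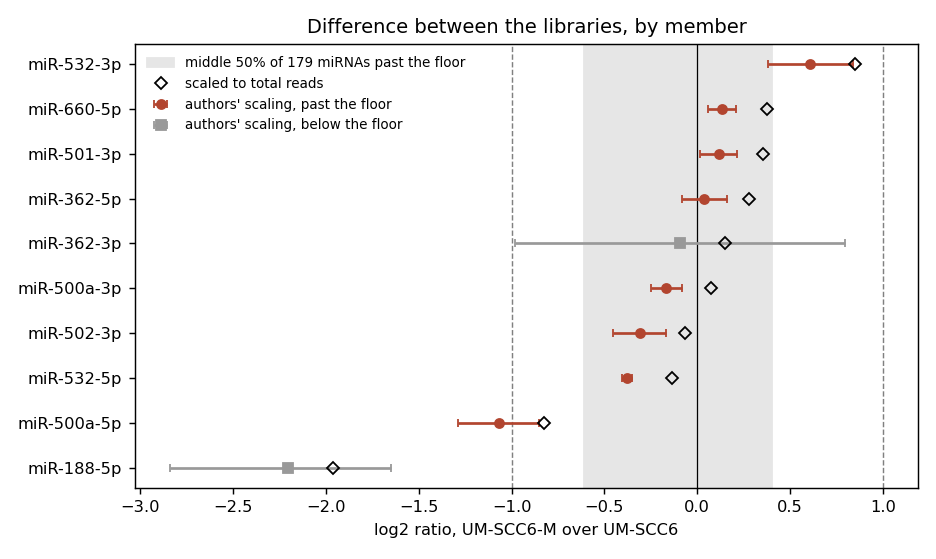
Log2 ratio of UM-SCC6-M over UM-SCC6 for each member under the authors' scaling (filled points, exact 95% counting intervals) and under scaling to total reads (open diamonds), with dashed lines at 2-fold and the middle 50% of the 179 miRNAs past the floor in gray. The members lie on both sides of 0, with 8 between -0.38 and 0.61 and miR-500a-5p and miR-188-5p below -1.

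Under the authors' scaling, sequence relatives of the locus did not all share a direction. The summed carriers of the seed AUGCACC (miR-501-3p and miR-502-3p) had 305.1 normalized reads in UM-SCC6-M and 311.0 in UM-SCC6, a log2 ratio of -0.03. The ratio was 0.11 for miR-501-3p and -0.31 for miR-502-3p, or 0.36 and -0.07 under scaling to total reads. Those of the seed AUCCUUG (miR-362-5p and miR-500b-5p) had 149.7 in UM-SCC6-M and 144.2 in UM-SCC6, a ratio of 0.05. The counting intervals of both miR-362-5p and miR-500b-5p included 0. miR-500a-5p, with that seed moved by 1 base, stood at -1.07.

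The arms of single hairpins were compared because their balance does not depend on the scaling of the libraries. The hairpins below have both arms in capitals, 5′ to 3′, from RefSeq (GRCh38.p14), and are shown because they are those with both arms among the members.
MIR532: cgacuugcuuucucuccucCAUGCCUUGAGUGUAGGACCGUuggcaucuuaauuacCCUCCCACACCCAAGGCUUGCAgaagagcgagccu
MIR500A: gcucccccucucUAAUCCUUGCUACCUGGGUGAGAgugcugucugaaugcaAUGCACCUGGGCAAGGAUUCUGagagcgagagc
MIR362: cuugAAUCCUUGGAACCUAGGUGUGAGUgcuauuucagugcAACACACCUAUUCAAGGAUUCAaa

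The dominant arm differed between hairpins of the locus and was the same in both libraries for each. For miR-532, 98.2% of the reads of the hairpin were 5p in UM-SCC6-M (98.0 to 98.4) and 99.1% in UM-SCC6 (99.0 to 99.2). miR-362 was 98.0% 5p in UM-SCC6-M and 97.9% in UM-SCC6, and miR-660 99.6% and 99.5% in the same order. For miR-500a the 3p arm dominated, with 9.90% of reads from the 5p arm in UM-SCC6-M (8.81 to 11.1) and 17.1% in UM-SCC6 (15.7 to 18.5). miR-501 had 10.4% 5p reads in UM-SCC6-M and 12.6% in UM-SCC6, and miR-502 had 5.37% in UM-SCC6-M and 6.50% in UM-SCC6. miR-500b, whose 3p product shares 13 bases in a row with miR-500a-3p, favoured the 5p arm, at 76.0% in UM-SCC6-M (64.75 to 85.11) and 62.7% in UM-SCC6 (49.15 to 74.96). Of the hairpins with related 3p products, miR-500a, miR-501 and miR-502 thus favoured the 3p arm. The far less abundant miR-500b did not, though its interval in UM-SCC6 included equal arms. Nor did miR-362, whose 3p product lies at an edit distance of 5 from miR-502-3p.

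**Figure D4:**
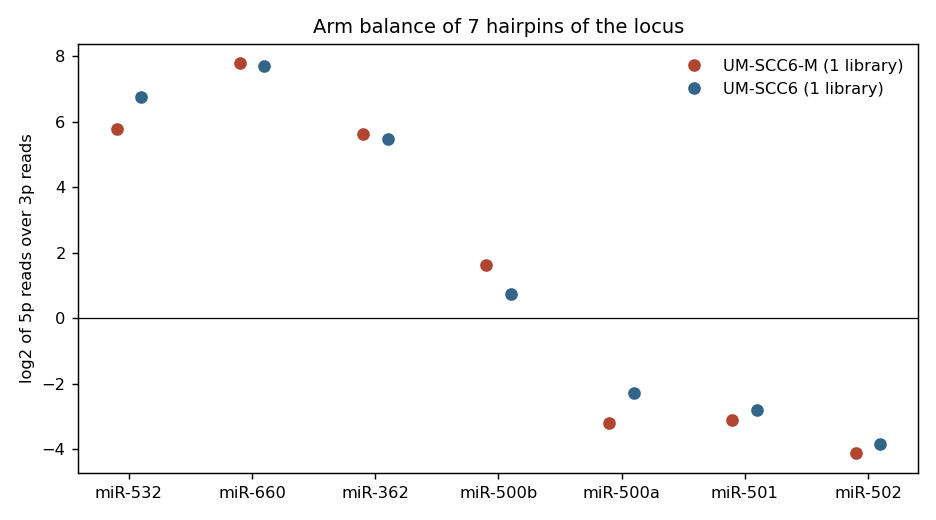
Log2 of 5p reads over 3p reads for 7 hairpins of the locus in the UM-SCC6-M library (left point of each pair) and the UM-SCC6 library (right point), with 0 meaning equal arms. The UM-SCC6-M point lies lower by 0.99 for miR-532 and by 0.90 for miR-500a, and both points stay on the same side of 0 for every hairpin.

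Compared with UM-SCC6, the arm balance in UM-SCC6-M was shifted toward 3p for both miR-532 and miR-500a. The log2 ratio of 5p to 3p reads of miR-532 was 5.77 in UM-SCC6-M and 6.76 in UM-SCC6, a difference of -0.99 with a counting standard error of 0.11. That of miR-500a was -3.18 in UM-SCC6-M and -2.28 in UM-SCC6, a difference of -0.90 with a standard error of 0.12. Under the authors' scaling the arms of miR-532 went opposite ways, the 5p arm lower and the 3p arm higher. For miR-500a the minor 5p arm was the one far apart. Under scaling to total reads the miR-500a arms also had opposite signs, at -0.83 for 5p and 0.08 for 3p. Neither reached a difference of 1, which 30% of the 30 hairpins with both arms at 50 normalized reads did. Ordered from the largest shift toward the 3p arm, miR-532 had rank 5 and miR-500a rank 7 of the 30. That order leaves out size toward 5p, where 5 hairpins passed a difference of 1, against 4 toward 3p. The median absolute difference over the 30 was 0.76, not far below those of miR-532 and miR-500a. The difference of miR-362 was 0.13 with a standard error of 0.42, too wide to give a direction with 24 3p reads in UM-SCC6-M and 23 in UM-SCC6. That of miR-501 was -0.31 (standard error 0.15) and that of miR-502 -0.29 (standard error 0.29). miR-500b went the other way at 0.90, with a standard error of 0.54 and an interval of -0.17 to 1.97, and miR-660 stood at 0.08 (standard error 0.56). Reads that could belong to a related name enter both hairpins of the miR-500 group, and their part in these balances was not tested.

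The remaining products of the locus were of low level. Of the 6 listed, none reached 50 normalized reads in either library, and together they had 40.5 in UM-SCC6-M and 45.6 in UM-SCC6. miR-501-5p was the most abundant, at 24.6 in UM-SCC6-M and 28.2 in UM-SCC6. miR-502-5p had 44 reads in UM-SCC6-M and 60 in UM-SCC6, with a log2 ratio of -0.60 (-1.20 to -0.02). The counting intervals of the other 4 with reads included 0.

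Other miRNAs of chromosome X were set beside the cluster. Among neighbours on the same arm outside CLCN5, miR-98-5p, of the let-7 seed family, stood at 0.37, miR-221-3p at -0.34, miR-221-5p at -0.29 and miR-222-3p at -0.54, and none of these 4 was 2-fold apart. On the long arm, 5 of 5 members of the group of miR-424, miR-503, miR-542 and miR-450 at the floor were at least 2-fold higher in UM-SCC6-M, between 1.24 and 2.03 on the log2 scale. Of the miR-374 and miR-545 group 1 of 4 was at least 2-fold higher. With those below the floor, the miR-424 group had 7 entries and the miR-374 group 6. Over all 179 miRNAs at the floor, 7.26% were at least 2-fold higher and 20.1% at least 2-fold apart in either direction. No test of the difference between these groups and the cluster was made. By log2 ratio, miR-221-5p (-0.29), miR-128-3p (-0.29) and miR-103b (-0.27) were nearest to the summed cluster, a likeness that rests on 2 libraries.

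In the authors' deposited table, 5 of the 10 members had a q-value under 0.05, against 17.6% of the 854 entries with a q-value, and none carried the mark that the table gives to 44 entries. Entries at 50 or more normalized reads had such q-values far more often, in 75.4% of 179 in the authors' deposited table, against 4 of the 8 members at that floor. The 5 q-values in the authors' deposited table were 0.00123 for miR-532-5p, 0.0028 for miR-660-5p, 0.0324 for miR-500a-5p, 0.0354 for miR-188-5p and 0.0406 for miR-532-3p. These figures compare 2 libraries and not 2 conditions. They also do not follow the deposited fold changes, since in the authors' deposited table miR-660-5p, at a log2 fold change of 0.14, has a far lower q-value than miR-502-3p, at -0.31 with 0.991. Examined from the values, the deposited p-values of the 10 members equalled, within 0.265%, a normal approximation that treats the scaled values as reads and compares shares of the 2 column sums, 919341 and 1087359. The same held within 1% for 375 of 375 entries above 0 in both columns with a deposited p-value over 1e-10. Such a comparison has its centre at a log2 ratio of -0.24 and not at 0. From that centre miR-660-5p lies 0.38 above and miR-502-3p 0.07 below, the same distances as their ratios of 0.38 and -0.07 under scaling to total reads.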

How the data were processed

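Small RNA libraries were prepared from 3 µg of total RNA by adapter ligation and cut from a gel at 140 to 160 bp, per the labels' protocols. The submitters' processing notes name Bowtie without a version, and no source used here gives the scaling method. The deposited table holds, per the file headers, 1 signal column per library, and a log2 fold change, p-value and q-value that are the authors' own. Values above 0 were whole multiples of 1 step per library, within 7.2e-05 of a step, and reads were recovered by dividing by it. Values under 1 are listed as 0, and such reads were recovered from the deposited log2 fold change where given, so that 555 entries had known reads.

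Ratios were computed here after adding 0.5 reads to each library. Intervals are exact for ratios and shares (Clopper-Pearson) and for levels (Poisson). Those of arm balance differences are normal approximations from the counting standard error. All cover counting error only. The size rule was 2-fold with 50 or more normalized reads in the higher library, since 1 library per line allows no test. Reads that suit more than 1 name could not be reassigned, as raw reads were not analysed here. The members, lists and rules were chosen with earlier results of these data known. The named miRNAs were all members, the fixed lists of the locus and of chromosome X, the markers, seed sharers, and the 3 nearest in ratio. The ratio and interval code was tested on simulated counts. Alternatives were other scalings, floors, thresholds, 5 added reads and the deposited fold changes. Python 3.11.15, numpy 2.4.6, pandas 2.3.3, scipy 1.17.1 and matplotlib 3.10.9 were used.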

Additional observations from a re-analysis of the deposited data

How the results depend on the processing

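The summed log2 ratio of the cluster, -0.28 under the authors' scaling, was -0.042 with total reads, -0.24 with the median of ratios, -0.21 with total reads without the 10 most abundant miRNAs, and -0.042 without miR-532-5p under the authors' scaling. It stayed below 0 in all of these. The median over members, -0.06, was 0.18 with total reads and -0.17 at a floor of 10 normalized reads, so it gave no direction. The count of members 2-fold apart, 1, was 0 with total reads, 0 with total reads without the 10 most abundant, 0 at a floor of 200, 0 at a threshold of 4-fold, and 0 when miR-500a-5p was summed with miR-500b-5p, an alternative chosen after seeing the data. It was 2 at a floor of 10, 2 without a floor and 2 at 1.5-fold. Without a floor both were lower in UM-SCC6-M, beside 19.8% of the 555 miRNAs with known reads. No share over all miRNAs was computed for the other floors and thresholds, so these counts are no result about the cluster. The arm balances of miR-532, miR-500a and miR-362 stayed within their counting intervals with 5 added reads. Scaling to total reads cannot alter a ratio within 1 library, so that alternative says nothing of them. Of 60 planned values of single members, 50 stayed within their counting intervals and 10 moved beyond them. The sign of miR-500a-3p and miR-362-3p changed with total reads. miR-362-3p and miR-188-5p rest on few reads. No paired analysis was possible because each line has 1 library.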
